A study of Mus musculus with 24 samples.

Results

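The 8 genes described here encode the corticosteroid receptors and proteins that act directly on them or on the central stress axis: Nr3c1, Nr3c2, Hsd11b1, Fkbp4, Crhr1, Ptges3, Ncoa1 and Ncoa2. They were chosen by name and function, with earlier results of these data known, and are 8 of the 50686 genes in the deposited count tables. All 8 passed the filter on low counts and are among the 21657 genes tested. Fkbp5, a ninth gene, serves only as a read-out beside them and is not a member. The glucocorticoid receptor (Nr3c1) and the mineralocorticoid receptor (Nr3c2) are steroid-activated transcription factors. In the brain both bind corticosterone, the main glucocorticoid of mice, and the mineralocorticoid receptor does so with the higher affinity. The unbound glucocorticoid receptor is held in a complex with Hsp90 in which the cochaperones p23 (Ptges3) and FKBP52 (Fkbp4) favour hormone binding and nuclear entry, while FKBP51 (Fkbp5) lowers hormone affinity. Fkbp5 is itself a classical target gene of the receptor.

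The study set mice labelled Pank1-/- Syn-Pank2-/- (double knockout, dKO below) against wild type (WT), all C57BL/6, of both sexes, at day 10 and day 20. Pank1 and Pank2 encode pantothenate kinases, the enzymes of the opening step of coenzyme A synthesis; the sources used here do not spell out Syn, the event from which the days are counted or the deleted exons. Stranded mRNA libraries came from tissue labelled back left brain, 3 for each genotype, sex and day, or 24 in 8 groups. No label ties a library to its own animal, so the p-values below measure only the spread between these libraries, which may be technical.

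One dKO male day 10 library held 45964 gene counts and was left out, so 23 of 24 libraries with 9.19 to 44.7 M (mega) gene counts were used and dKO at day 10 has n = 5 against n = 6 in the other 3 sets. Values are gene counts scaled to a library of 1 M (CPM), where 1 count was worth 0.0224 to 0.109 CPM, and the 8 genes had between 49 (Hsd11b1) and 6945 (Ncoa1) counts per library. Pank1 stood at 6.71 to 8.12 CPM in dKO against 19.5 to 26.7 in WT at day 20 (33.1% of WT) and at 7.17 to 8.87 against 20.99 to 24.7 at day 10 (36.1%). Pank2 stood at 38.5 to 46.3 against 52.6 to 61.3 CPM at day 20 (74.2%, adjusted p = 1.06e-06 by edgeR's quasi-likelihood test) and at 44.6 to 52.1 against 46.3 to 56.3 at day 10 (93.8%, adjusted p = 0.321). Cerebellar markers were high in the tissue. The cortical markers Emx1 and Fezf2 stood at 0.206 CPM or less in WT and in dKO at day 20. In dKO at day 10 they reached up to 2.73 and 3.42 CPM. All 8 cortical excitatory neuron markers, these included, summed to 301 to 376 CPM in WT and 318 to 327 in dKO at day 20. At day 10 that sum was 207 to 286 CPM in WT and 169 to 244 in dKO, so other cortical markers were present. The summed level of 8 cerebellar granule and Purkinje markers was 446 CPM in dKO male day 10 replicate 2, 968 in dKO female day 10 replicate 2 and 1131 in WT male day 10 replicate 3, against 1444 to 2719 in the other libraries. WT female day 10 replicate 2 held pituitary transcripts at a summed 272 CPM, against 0.279 to 1.90 in all other libraries. Some day 10 results are therefore also given without these 4 libraries, the rest only with them, a choice made after seeing the data. Every day 10 group loses a library this way, and only replicate 1 is left of the dKO males at day 10. That group is then assumed to vary like the others. A call lost without the 4 libraries thus cannot be told apart from an effect of fewer libraries.

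At day 20 the glucocorticoid receptor gene and both Hsp90 cochaperone genes fell in dKO and the coactivator gene Ncoa2 rose. Nr3c1 stood at 71.7% of WT, Fkbp4 at 68.5%, Ptges3 at 75.2% and Ncoa2 at 114.4%, while Fkbp5 stood at 472% of WT. Nr3c2, Hsd11b1, Crhr1 and Ncoa1 did not pass the test. At day 10 Ptges3 alone of the 8 passed, and it was higher in dKO. Calls were made where the adjusted p was under 0.05 (edgeR's quasi-likelihood test, Benjamini-Hochberg over 21657 genes). At day 20 this called 4 of the 8, against 38.0% of all genes tested, so a call is common in this comparison and the count of 4 is close to that background. At day 10 it called 1 of the 8, against 4.99% of all genes tested (3.23% higher and 1.76% lower in dKO). The median log2 change of the 8 was -0.19 at day 20 and -0.07 at day 10, and that of all genes tested was 0.00 and 0.01.

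**Figure D1:**
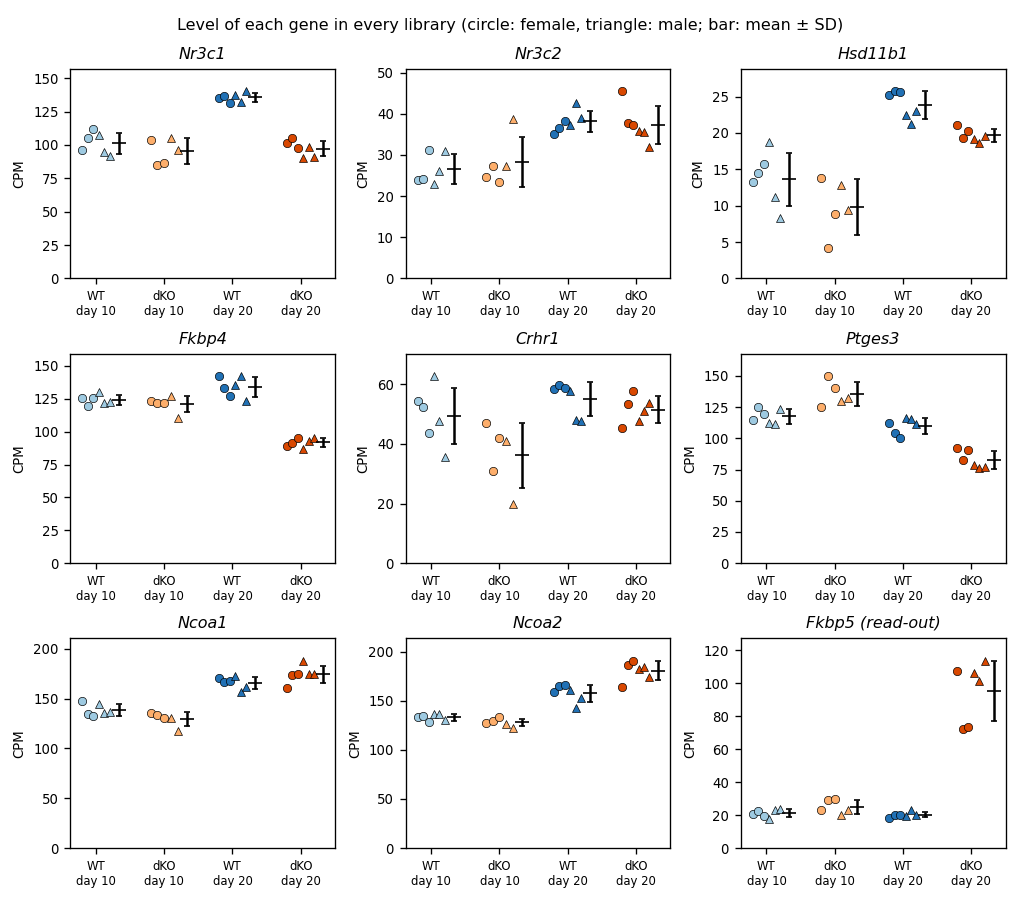
Level of the 8 genes and of Fkbp5 in each library, in CPM on a linear axis, for WT and dKO at day 10 and day 20. Points are libraries (females and males marked apart) and bars give the mean ± SD. Nr3c1, Fkbp4, Ptges3 and, by a small margin, Hsd11b1 lie apart between the genotypes at day 20, with dKO lower, and Fkbp5 lies apart with dKO higher.

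Nr3c1 (ENSMUSG00000024431, chr18:39410545-39519421 on GRCm38, minus strand) encodes the glucocorticoid receptor. At day 20 the WT females had 135, 137 and 131 CPM and the WT males 137, 132 and 140.2 CPM. The dKO libraries at day 20 ran from 90.1 CPM over a median of 98.1 to 105 CPM. The lowest WT library was thus above the highest dKO library, and the WT values were close together. Nr3c1 fell by 0.48 on the log2 scale at day 20 (SE 0.05, 95% interval -0.59 to -0.37, adjusted p = 4.63e-07). In bulk tissue, fewer cells that express a gene and less of its RNA per cell cannot be told apart, here and for every gene below. WT at day 10 ranged from 92.0 to 112 CPM with a median of 101. The dKO females at day 10 had 104, 84.6 and 86.3 CPM and the dKO males 105 and 96.2 CPM. These ranges overlapped, and the log2 change of -0.08 did not pass (SE 0.06, adjusted p = 0.451). The difference between the days in the genotype effect was -0.40 on the log2 scale (SE 0.08, adjusted p = 0.0007), and 28.3% of all genes tested passed that test of genotype by day. In WT the level rose by 0.42 between day 10 and day 20 (SE 0.05, adjusted p = 8.18e-07), to 134% of its day 10 level. The dKO values at day 20 lay within the range of the WT values at day 10 or just below it.

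Markers of several cell types moved with the fall of Nr3c1, Fkbp4 and Ptges3 at day 20. In that comparison 19.2% of all genes tested were called lower and 18.8% higher. All 8 microglial markers were called lower in dKO, and their summed level was 80.8 to 132 CPM against 156 to 184 in WT. Of 8 endothelial markers 6 were called lower (222 to 271 against 288 to 302 CPM summed), and of 8 mural cell markers 4 were called lower and 1 higher (150.2 to 177 against 225 to 265 CPM). Of 8 choroid plexus markers 5 were called lower (471 to 865 against 1163 to 1482 CPM), and of 8 oligodendrocyte markers 4 (11704 to 14923 against 15351 to 20029 CPM). All 6 erythrocyte markers were called lower, 6 of 8 meningeal fibroblast markers lower and 1 higher, and 3 of 8 astrocyte markers lower and 1 higher. No microglial marker was at 0 in any library. Of 7 tested markers each, 1 cortical and 2 hippocampal neuron markers were called higher and 0 lower. Of 8 neuronal markers 2 were called lower. Of 8 cerebellar granule and Purkinje markers edgeR called 0 (1 at an unadjusted p under 0.05, 1 higher in DESeq2), with a median log2 change of 0.04. The part of these cell types in the changes of the 8 genes was not tested.

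Nr3c2 (ENSMUSG00000031618, chr8:76899442-77245012, plus strand) encodes the mineralocorticoid receptor, and an exon of it overlaps Gm10649 on the opposite strand. At day 20 WT ran from 35.1 CPM over a median of 37.8 to 42.6 CPM, and dKO from 31.8 over 36.5 to 45.5 CPM. The dKO range held the whole WT range. Over both sexes the log2 change was -0.03 with a 95% interval of -0.21 to 0.15 (SE 0.09, adjusted p = 0.799). A change of the size seen for Nr3c1 over both sexes lies outside that interval. The dKO males (31.8 to 35.7 CPM) lay below the WT males (37.3 to 42.6 CPM), while the females overlapped. In edgeR the change was -0.20 in males (adjusted p = 0.217) and 0.14 in females (adjusted p = 0.537). Neither passed, nor did genotype by sex (-0.34, adjusted p = 0.374). With only the groups compared fitted, the male change passed (adjusted p = 0.0461). In WT at day 10 Nr3c2 ran from 22.9 over 25.1 to 31.2 CPM. The dKO females had 24.7, 27.2 and 23.4 CPM and the dKO males 27.3 and 38.7 CPM. All dKO libraries but the male at 38.7 CPM, the one with the lowest cerebellar marker sum, lay within the WT range. For Nr3c2 at day 10 the log2 change was 0.12 (SE 0.10, adjusted p = 0.468). Its sign turned without the 4 libraries, without that male alone, and with 1 surrogate variable in the fit. In WT Nr3c2 rose by 0.53 between the days (SE 0.09, adjusted p = 3.08e-05), to 144% of its day 10 level.

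The balance of the receptors was followed as the ratio of Nr3c1 to Nr3c2, both as CPM per kilobase of exon. Exon length counted all annotated exons of a gene, so the size of such ratios depends on the annotation. The ratio was 2.62 to 3.25 in WT and 1.88 to 2.40 in dKO at day 20, with no overlap. At day 10 it was 2.51 to 3.96 in WT and 2.10 to 3.55 in dKO, with overlap. Nr3c1 thus exceeded Nr3c2 per length in every library, by less in dKO at day 20. These ratios carry no test of their own beyond those of the genes in them.

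**Figure D2:**
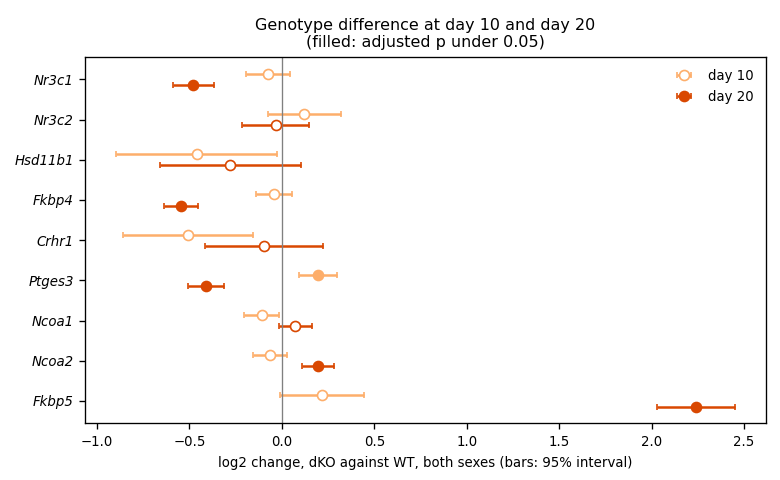
Log2 change of dKO against WT for the 8 genes and Fkbp5 at day 10 and at day 20, from edgeR's quasi-likelihood fit over both sexes. Points are estimates and bars 95% intervals. At day 20 the intervals of Nr3c1, Fkbp4 and Ptges3 lie below 0 and those of Ncoa2 and Fkbp5 above it.

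Hsd11b1 (ENSMUSG00000016194, chr1:193221634-193264075, minus strand) encodes the enzyme that regenerates active corticosterone from its inert keto form inside cells. At day 20 WT ran from 21.2 CPM over 24.2 to 25.7 CPM, and dKO from 18.7 over 19.4 to 21.1 CPM. The ranges did not overlap, by a small margin. The log2 change was -0.28 (SE 0.18, 95% interval -0.66 to 0.10) and did not pass in the fit that shares its spread with day 10 (adjusted p = 0.246). With only the day 20 groups fitted it passed (-0.28, adjusted p = 0.000249), and it also passed without the 4 day 10 libraries named above (adjusted p = 0.0425). At day 20, 4 of the 8 genes, Nr3c1, Hsd11b1, Fkbp4 and Ptges3, had every dKO library below every WT library, as had 10.3% of all genes tested. At day 10 none of the 8 was apart in this way, against 1.99% of all genes in either direction. At day 10 Hsd11b1 ran from 8.35 over 13.9 to 18.8 CPM in WT. The dKO females had 13.8, 4.19 and 8.86 CPM and the dKO males 12.8 and 9.43 CPM. The values scattered more than at day 20, and the lowest in each genotype belonged to libraries with a low cerebellar marker sum (968 CPM for the dKO female at 4.19 CPM and 1131 CPM for the WT male at 8.35 CPM). Hsd11b1 had a log2 change of -0.46 at day 10 (SE 0.21, adjusted p = 0.177), -0.33 without the 4 libraries (adjusted p = 0.397) and -0.04 with 1 surrogate variable in the fit (adjusted p = 0.982). Without dKO female day 10 replicate 1 it was -0.68 (adjusted p = 0.0306). In WT Hsd11b1 rose by 0.78 between the days (SE 0.18, adjusted p = 0.00168), to 171% of its day 10 level, and by 0.66 without the 4 libraries.

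The promoters of the chaperone genes are shown because Fkbp4, Ptges3 and Fkbp5 code for proteins of one receptor complex and their transcripts moved in different directions at day 20. Each line gives the 250 bases before the RefSeq start site on GRCm38.p6, read 5′ to 3′ on the gene's strand: Fkbp4 from chr6:128438657-128438906 (minus strand), Ptges3 from chr10:128058732-128058981 (plus strand) and Fkbp5 from chr17:28486150-28486399 (minus strand). Capitals mark a match to GAANNTTC, a letter pattern of heat shock elements that is its own reverse complement.
Fkbp4: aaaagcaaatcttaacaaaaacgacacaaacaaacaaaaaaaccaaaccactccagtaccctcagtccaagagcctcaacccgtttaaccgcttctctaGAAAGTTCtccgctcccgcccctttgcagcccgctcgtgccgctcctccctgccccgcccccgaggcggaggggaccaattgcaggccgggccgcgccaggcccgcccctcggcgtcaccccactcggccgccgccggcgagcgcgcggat
Ptges3: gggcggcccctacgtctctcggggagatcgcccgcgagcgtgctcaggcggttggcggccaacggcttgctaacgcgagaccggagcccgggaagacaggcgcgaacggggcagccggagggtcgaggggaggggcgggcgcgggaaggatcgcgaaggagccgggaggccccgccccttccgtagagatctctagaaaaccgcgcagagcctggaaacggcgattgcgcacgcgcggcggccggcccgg
Fkbp5: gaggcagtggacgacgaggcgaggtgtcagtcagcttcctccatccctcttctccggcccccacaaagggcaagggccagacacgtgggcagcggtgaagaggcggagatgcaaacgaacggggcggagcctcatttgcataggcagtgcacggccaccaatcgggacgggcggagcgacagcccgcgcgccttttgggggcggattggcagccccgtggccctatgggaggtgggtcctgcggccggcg
The Fkbp4 window held 1 match, whose leftmost base lies 151 bases before the start, and the Ptges3 and Fkbp5 windows held none. Of 32851 mouse promoter windows of this length, 6.69% held such a match. The hexamer AGAACA of glucocorticoid response elements, searched on both strands, was in none of the 3 windows and in 16.1% of all, and its inverted pair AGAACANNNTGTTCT was in none of the 3 and in 0.00913% of all. Of the 9 genes including Fkbp5, 7 had an entry in the promoter table, and Nr3c1 and Ncoa2 had none. Among the other entries Nr3c2 also held 1 match to GAANNTTC, 151 bases before its start. These matches describe letters in a window and carry no information on binding.

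Fkbp4 (ENSMUSG00000030357, chr6:128429735-128438677, minus strand) encodes FKBP52, the cochaperone whose promoter carries the match above. At day 20 WT ran from 123 CPM over 134 to 142 CPM, and dKO from 87.1 over 92.1 to 95.04 CPM. The groups lay well apart and the dKO values were close together. Fkbp4 fell by 0.55 on the log2 scale (SE 0.05, 95% interval -0.64 to -0.45, adjusted p = 7.62e-09). It was -0.55 in females (adjusted p = 1.24e-05) and -0.55 in males (adjusted p = 1.22e-06). At day 10 WT ran from 119.5 over 124 to 129.8 CPM. The dKO females had 123, 122 and 122 CPM and the dKO males 127 and 110.4 CPM. All dKO libraries but the male at 110.4 CPM lay in the WT range, and the log2 change was -0.04 (SE 0.05, adjusted p = 0.645). The genotype effect differed between the days by -0.50 (SE 0.07, adjusted p = 1.34e-05).

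Ptges3 (ENSMUSG00000071072, chr10:128058954-128077272, plus strand) encodes p23, which closes the mature Hsp90 complex. A processed pseudogene on chromosome 6, Ptges3-ps, is a near copy, so how reads were split between them is uncertain. At day 20 WT ran from 100.4 CPM over 112 to 116 CPM, and dKO from 75.9 over 80.4 to 92.2 CPM. Every dKO library was below every WT library. Within dKO the females stood at 82.4 to 92.2 CPM and the males at 75.9 to 78.4 CPM. Over both sexes Ptges3 fell by 0.41 on the log2 scale (SE 0.05, 95% interval -0.51 to -0.31, adjusted p = 5.38e-07). It was -0.26 in females (adjusted p = 0.0152) and -0.57 in males (adjusted p = 1.24e-06). The female call was lost without dKO female day 20 replicate 2 and without WT female day 20 replicate 1. The test of genotype by sex gave -0.31 (SE 0.09, unadjusted p = 0.00346) and did not pass over all genes (adjusted p = 0.131). With only the day 20 groups fitted it passed (-0.30, adjusted p = 0.0343).

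At day 10 the direction was the other one for Ptges3. WT ran from 111 over 117 to 125 CPM, while the dKO females had 125, 149.8 and 140.1 CPM and the dKO males 130.0 and 132 CPM. The lowest dKO library only reached the top of the WT range, and the other dKO libraries were above it. Ptges3 was thus higher in dKO by 0.20 on the log2 scale (SE 0.05, adjusted p = 0.0333). Without the 4 day 10 libraries it was 0.18 and did not pass (adjusted p = 0.233), and its adjusted p ran from 0.00997 to 1.0 over the alternatives. At day 10, 4 of 8 oligodendrocyte markers were called lower in dKO (4053 to 6353 against 5976 to 12107 CPM summed) and 2 of 8 neuronal markers higher. Of all genes tested, 1.76% were called lower and 3.23% higher. The median log2 change was -0.60 for the oligodendrocyte markers and 0.15 for the neuronal ones. Without the 4 libraries these medians were -0.45 and 0.07. The part of these cell types in the values of Ptges3 was not tested. The genotype effect differed between the days by -0.61 on the log2 scale (SE 0.07, adjusted p = 2.24e-06), the greatest such difference among the 8.

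Fkbp5 (chr17:28399094-28517527, minus strand) is the read-out of receptor activity and was chosen as such with its rise in these data known, so its values are a description. At day 20 WT ran from 18.4 over 20.0 to 23.2 CPM. The dKO females had 107, 72.1 and 73.3 CPM and the dKO males 106, 101 and 114 CPM. At day 10 WT ran from 17.3 over 21.4 to 23.6 CPM, the dKO females had 23.1, 29.0 and 29.9 CPM and the dKO males 20.1 and 23.0 CPM. Only at day 20 were the genotypes apart. Fkbp5 had a log2 change of 2.24 at day 20 (SE 0.10) and 0.22 at day 10 (SE 0.11). Per kilobase of exon, the ratio of Fkbp5 to Fkbp4 was 0.0382 to 0.0484 in WT and 0.228 to 0.359 in dKO at day 20. The cochaperone that lowers hormone affinity thus stood closer to the one that favours it in every dKO library at day 20, while remaining the less abundant transcript.

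Crhr1 (ENSMUSG00000018634, chr11:104132855-104175523, plus strand) encodes the main brain receptor for corticotropin-releasing hormone, the peptide that starts the hormonal stress response. At day 20 WT ran from 47.6 CPM over 58.0 to 59.6 CPM, and dKO from 45.3 over 52.2 to 57.7 CPM. The ranges overlapped over most of their length. The log2 change was -0.09 with a 95% interval of -0.42 to 0.23 (SE 0.15, adjusted p = 0.666). At day 10 WT ran from 35.6 over 49.9 to 62.7 CPM, the dKO females had 46.9, 30.7 and 42.1 CPM and the dKO males 40.9 and 19.9 CPM. The log2 change was -0.51 (SE 0.17, adjusted p = 0.0776). It was -0.30 without the 4 libraries (adjusted p = 0.299) and -0.02 with 1 surrogate variable in the fit (adjusted p = 0.981). It passed in DESeq2 with all 23 libraries and, in edgeR, without WT male day 10 replicate 3 (-0.59, adjusted p = 0.0284). Without dKO male day 10 replicate 1 it was -0.82. There the only dKO male left at day 10 is the one at 19.9 CPM and is assumed to vary like the other groups.

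Crhr1 and Hsd11b1 moved across the day 10 libraries with the cerebellar marker sum. The libraries with sums of 446, 968 and 1131 CPM had Crhr1 at 19.9, 30.7 and 35.6 CPM and Hsd11b1 at 9.43, 4.19 and 8.35 CPM. No day 10 library with a higher sum had as little of either gene, except that the dKO female at 8.86 CPM of Hsd11b1 lay below the 9.43 CPM of the dKO male. Between the genotypes at day 10 edgeR called 0 of the 8 cerebellar markers (5 at an unadjusted p under 0.05, 2 lower in DESeq2), and their median log2 change was -0.68. Without the 4 libraries, chosen in part by these markers, that median was -0.39. The part of the cerebellar share of the tissue in the day 10 values was not tested.

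**Figure D3:**
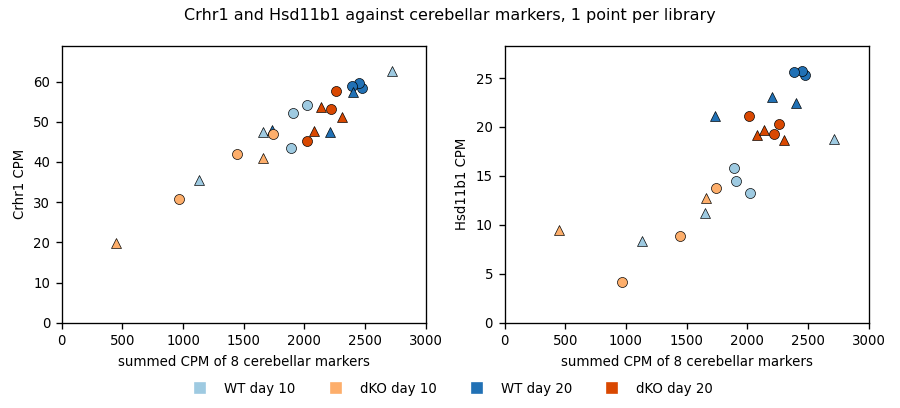
Crhr1 and Hsd11b1 in CPM against the summed CPM of 8 cerebellar granule and Purkinje markers, one point per library, coloured by genotype and day. The 3 day 10 libraries with sums of 446 to 1131 lie at the left with low values of both genes.

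The coactivators Ncoa1 (SRC-1; ENSMUSG00000020647, chr12:4247362-4477182, minus strand) and Ncoa2 (GRIP1; ENSMUSG00000005886, chr1:13139105-13374083, minus strand) bind hormone-loaded nuclear receptors and recruit histone acetyltransferases. Ncoa2 stood at 143 over 160.2 to 166 CPM in WT and at 164 over 184 to 191 CPM in dKO at day 20. The ranges met at their edges, with the lowest dKO library below the highest WT library. Ncoa2 rose by 0.19 on the log2 scale (SE 0.04, 95% interval 0.11 to 0.28, adjusted p = 0.000871). It was 0.24 in males (adjusted p = 0.00279) and 0.14 in females, where it did not pass (adjusted p = 0.129). The genotype by sex term of Ncoa2 did not pass either (log2 0.10), so a difference between the sexes is not shown. Against a minimum change of 1.2-fold the day 20 change of Ncoa2 was not called. In WT at day 10 Ncoa2 ran from 128 over 134 to 137 CPM, the dKO females had 128, 129.7 and 133 CPM and the dKO males 127 and 122 CPM. The log2 change at day 10 was -0.07 (SE 0.05, adjusted p = 0.401), and the effect differed between the days by 0.26 (SE 0.06, adjusted p = 0.00344).

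Ncoa1 ran from 156 over 167 to 172 CPM in WT and from 161 over 175 to 188 CPM in dKO at day 20. The ranges overlapped, and the log2 change of 0.07 did not pass (SE 0.04, 95% interval -0.01 to 0.16, adjusted p = 0.188). At day 10 WT ran from 133 over 136 to 148 CPM, the dKO females had 135, 134 and 130.5 CPM and the dKO males 131 and 117 CPM. The log2 change at day 10 was -0.11 (SE 0.05, adjusted p = 0.140). The effect differed between the days by 0.18 (SE 0.06, adjusted p = 0.0317), a call that was lost without the 4 day 10 libraries (adjusted p = 0.0865) and in 14 of 33 alternatives in all. An exon of Ncoa1 overlaps 4921501I09Rik on the opposite strand. Per kilobase of exon, the ratio of Ncoa1 to Ncoa2 was 1.84 to 1.995 in WT and 1.67 to 1.88 in dKO at day 20, and these ranges overlapped.

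Levels of different genes were set side by side as CPM per kilobase of exon. The order depends on the annotated exon length, which ran from 2217 bases for Ptges3 to 15642 for Ncoa2. In WT at day 20 the order of the means was Ptges3 (49.6), Fkbp4 (47.9), Crhr1 (22.4), Ncoa1 (19.3), Nr3c1 (17.6), Ncoa2 (10.1), Nr3c2 (5.89), Hsd11b1 (5.62) and Fkbp5 (2.13). The libraries of Ptges3 and Fkbp4 overlapped, as did those of Crhr1 and Ncoa1, of Ncoa1 and Nr3c1, and of Nr3c2 and Hsd11b1. In dKO at day 20 the order of the 8 was the same, with Ptges3 at 37.4, Fkbp4 at 32.8, Nr3c1 at 12.7 and Ncoa2 at 11.5 CPM per kilobase. Nr3c1 and Ncoa2, apart in WT, overlapped in dKO, and Fkbp5 moved up to 10.1, between Ncoa2 and Nr3c2 and overlapping Ncoa2. The cochaperone transcripts were thus the most abundant of the set per length in both genotypes, and the mineralocorticoid receptor and Hsd11b1 the least.

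In WT, 6 of the 8 genes were called higher at day 20 than at day 10, against 25.5% of all genes tested called higher and 50.4% called in either direction. Besides Nr3c1, Nr3c2 and Hsd11b1, these were Ncoa1 (0.26, SE 0.04, adjusted p = 2.12e-05), Ncoa2 (0.24, SE 0.04, adjusted p = 4.13e-05) and, narrowly, Fkbp4 (0.11, SE 0.05, adjusted p = 0.0481). The call of Fkbp4 was lost without the 4 day 10 libraries (0.07, adjusted p = 0.272) and in 25 of 33 alternatives in all. Ptges3 (-0.10, adjusted p = 0.0917) and Crhr1 (0.14, adjusted p = 0.455) did not pass. For 5 genes, Nr3c1, Nr3c2, Hsd11b1, Ncoa1 and Ncoa2, every WT library at day 20 was above every WT library at day 10, as it was for 15.6% of all genes tested. In dKO 3 genes were apart upward between the days (Hsd11b1, Ncoa1 and Ncoa2; 18.8% of all genes) and 2 downward (Fkbp4 and Ptges3; 18.9%). Nr3c1 was in neither group in dKO, where its levels at day 10 (84.6 to 105 CPM) and day 20 (90.1 to 105 CPM) overlapped almost wholly.

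The sexes were compared within each day and within WT. Between WT males and females none of the 8 was called by edgeR, by its unadjusted p under 0.05 or by DESeq2, and 0.0693% of all genes tested were called. In females at day 20, 3 of the 8 were called, Nr3c1 (-0.41), Fkbp4 (-0.55) and Ptges3 (-0.26), against 10.4% of all genes. In males at day 20, 4 of the 8 were called, Nr3c1 (-0.55), Fkbp4 (-0.55), Ptges3 (-0.57) and Ncoa2 (0.24), against 34.6% of all genes. At day 10 edgeR called 0 of the 8 in females (3 at an unadjusted p under 0.05, 0 in DESeq2, 0.319% of all genes) and 0 in males (4 unadjusted, 0 in DESeq2, 0.0139% of all genes). The genotype by sex test called 0 of the 8 at either day in edgeR (1 unadjusted at each day, 0 in DESeq2), and 0.0% of all genes. The test of genotype by day called 5 of the 8, namely Nr3c1, Fkbp4, Ptges3, Ncoa1 and Ncoa2, against 28.3% of all genes.

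Whether the 8 genes follow Fkbp5 from library to library was asked within the 3 sets of 6 libraries, since the sets themselves lie apart. This gave 24 relations of log2 CPM, each with an exact two-sided permutation p, and none passed after Benjamini-Hochberg adjustment (smallest adjusted p = 0.133 for Pearson's r and 0.2 for Spearman's rho), while 4 had an unadjusted p under 0.05 by each measure. With 6 libraries the smallest p possible was 0.00278 for Spearman's rho and lower for Pearson's r. In dKO at day 20, where Fkbp5 ranged from 72.1 to 114 CPM, r was -0.60 for Nr3c1, -0.30 for Fkbp4, -0.39 for Ptges3 and -0.69 for Ncoa2. Without the 2 libraries farthest from the median of Fkbp5 these were -0.49, 0.32, 0.11 and -0.49, and after subtracting the mean of the same sex they were -0.15, -0.37, 0.63 and -0.98. In WT at day 20 Ncoa1 had r = -0.93 (rho = -0.94, exact permutation p = 0.00556), and -0.93 without the 2 libraries farthest from the median of Fkbp5. In WT at day 20 Nr3c2 had r = 0.95 (rho = 0.83, exact permutation p = 0.0111), but 0.41 without such 2 libraries, so that relation rests on them. In WT at day 10 Fkbp4 had r = -0.91 (exact permutation p = 0.0222) and -0.87 without 2 libraries, but rho = -0.71 (exact permutation p = 0.136). Hsd11b1 had r = -0.85 (rho = -0.94, exact permutation p = 0.0347 for r) and -0.68 without 2 libraries. WT female replicate 2 and WT male replicate 3, among the 4 day 10 libraries named above, are in this set. After subtracting the mean of the same sex, the libraries were permuted within each sex (36 arrangements, smallest p possible 0.0278). None of the 24 passed by r (smallest adjusted p = 0.476, exact permutation, with 0 at an unadjusted p under 0.05). With that smallest p, a few relations could not pass the adjustment over 24, so the lack of calls there decides nothing.

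**Figure D4:**
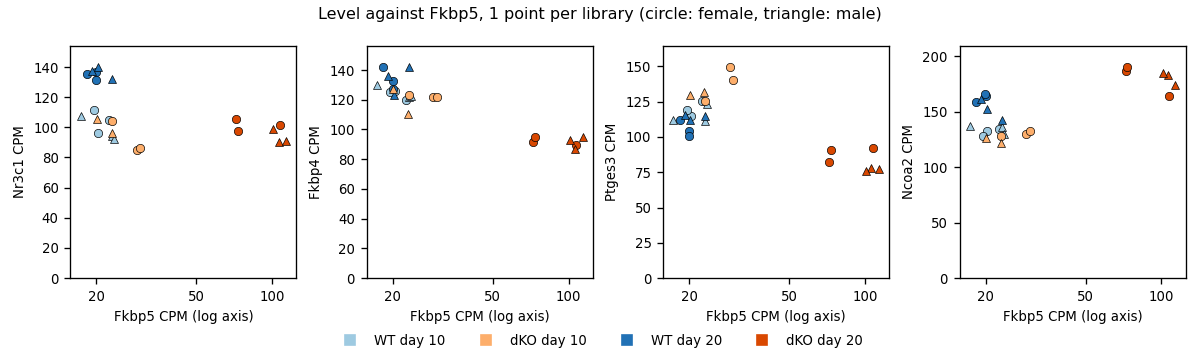
Nr3c1, Fkbp4, Ptges3 and Ncoa2 against Fkbp5, both in CPM, one point per library, coloured by genotype and day. The dKO day 20 libraries lie to the right at 72.1 to 114 CPM of Fkbp5. Within that set none of the relations passed. With the mean of the same sex subtracted, the test left little room for any to pass.

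The genes with the level pattern most like each member were found by Pearson's r of log2 CPM over the 23 libraries, among 13950 protein-coding genes whose mean reached 1 CPM. The libraries span both genotypes and both days, so differences between these groups enter every r, which is a description. Nr3c1 was followed most closely by S1pr1 (0.97), Pcdh9 (0.95) and Fn3krp (0.94), and Nr3c2 by Habp4 (0.97), Prkar1b (0.96) and Ppp1r9a (0.96). Fkbp4 was followed by Manf (0.97), Pdia4 (0.96) and Tra2a (0.95), of which Manf and Pdia4 encode proteins of the endoplasmic reticulum. Ptges3 was followed by Cacybp (0.97), Cfdp1 (0.96) and Ipo7 (0.96). Hsd11b1 was followed by Kcng4 (0.97), Rgs8 (0.97) and Cbln3 (0.97), of which Cbln3 is a marker of cerebellar granule cells. Crhr1 was followed by Arhgef33 (0.97), Arhgap10 (0.97) and Dusp5 (0.96), Ncoa1 by Fem1c (0.98), Gpatch8 (0.98) and Ash1l (0.98), and Ncoa2 by Lpp (0.98), Kmt2e (0.97) and Fbxw11 (0.97). No gene stood among the 3 closest of more than 1 member.

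Other genes of the receptor pathway were read from 4 lists. In the list of Hsp90 and Hsp70 chaperone machinery, which loads and unloads the receptor, 16 of 24 genes fell at day 20 and 3 rose, with a median log2 change of -0.28, in the direction of Fkbp4 and Ptges3. Hsph1, a nucleotide exchange factor of Hsp70, had 55.5 to 87.7 CPM in dKO and 139 to 237 in WT (log2 -1.35, SE 0.09, adjusted p = 1.996e-09). The constitutive Hsp70 gene Hspa8 fell by 0.56 and the exchange factor gene Hspa4 by 0.50 on the log2 scale. The heat-inducible Hspa1a (-1.81) and Hspa1b (-2.32) fell from 4.71 to 6.12 and 3.37 to 8.25 CPM in WT; these genes are near-identical, so their split is uncertain. Tsc1, which encodes a cochaperone of Hsp90 and part of the tuberous sclerosis complex, rose, with 140.3 to 217 CPM in dKO and 107 to 111 in WT (log2 0.66, SE 0.05, adjusted p = 5.28e-10). At day 10 edgeR called 0 of the 24 (7 at an unadjusted p under 0.05, 1 in DESeq2). In WT between the days 13 rose and 2 fell, and the genotype by day test called 1 higher and 17 lower. In the same comparison at day 20, 18.8% of all genes were called higher and 19.2% lower.

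Among 21 other nuclear receptor coregulators, 8 rose and 2 fell at day 20, with a median log2 change of 0.12. Of all genes tested, 18.8% were called higher and 19.2% lower. Trim24 (0.34), Ppargc1a (0.20) and Smarca2 (0.19) rose with Ncoa2. The third p160 coactivator gene, Ncoa3, fell by 0.25 (SE 0.05, adjusted p = 0.000167), with 58.2 to 66.8 CPM in dKO and 71.3 to 77.5 in WT, and the Mediator subunit gene Med14 fell by 0.20. The p160 coactivator genes therefore did not move in 1 direction.

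Of 15 tested genes of steroid conversion, synthesis and transport, 2 rose and 3 fell at day 20, with a median of 0.10. Of all genes tested, 18.8% were called higher and 19.2% lower, so these counts are near that background. Sult1a1, a sulfotransferase, stood at 21.6 to 31.1 CPM in dKO against 6.69 to 10.3 in WT (log2 1.67, SE 0.13, adjusted p = 2.61e-09). Abcb1b, which encodes a P-glycoprotein drug and steroid pump, rose by 0.96 (SE 0.15). Srd5a1, the 5-alpha-reductase that inactivates corticosterone and makes neurosteroids, fell by 0.70, with 11.1 to 15.5 CPM in dKO and 19.3 to 25.0 in WT (SE 0.08, adjusted p = 5.37e-07). Akr1c14, which acts after it in neurosteroid synthesis, fell by 0.74, and Cyp11a1, the side-chain cleavage enzyme, fell by 1.02, both from levels near 2 CPM or less in WT. At day 10 edgeR called 0 of the 15 (1 at an unadjusted p under 0.05, 0 in DESeq2). Cyp11b1, Cyp21a1, Hsd3b1, Serpina6 and Ugt2b1 were too low to test, at 0.197 CPM or less in every library.

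In the list of the CRH family, vasopressin and other axis peptides, 2 of 13 tested genes fell at day 20 and 0 rose. Their median log2 change was -0.28, and 19.2% of all genes tested were called lower and 18.8% higher. Pcsk1, a convertase that cuts prohormones, stood at 12.9 to 20.4 CPM in dKO against 25.2 to 31.6 in WT (log2 -0.68, SE 0.12, adjusted p = 0.000144). Crh itself stood at 1.40 to 3.36 against 3.28 to 5.05 CPM (log2 -0.84, SE 0.31, adjusted p = 0.0421). At day 10, 4 of the 13 rose, Crhbp (0.87), Adcyap1 (0.56), Mc4r (0.90) and Oxtr (0.57), the last named because the count is small, where 3.23% of all genes were called higher. Without the 4 libraries edgeR called 0 of the 13 at day 10 (5 at an unadjusted p under 0.05). These genes were low in this tissue: the 8 hypothalamic markers, of which Crh is 1, summed to 7.33 to 31.8 CPM in dKO and 7.60 to 43.7 in WT at day 20, where 1 was called lower, and to 6.23 to 29.1 and 3.13 to 91.6 CPM at day 10. Of 7 tested cortical excitatory neuron markers 1 was called higher at day 10 (5 at an unadjusted p under 0.05), with a median log2 change of 0.50. Without the 4 libraries the cortical median was 0.11, over 6 tested markers. The part of either in the changes of this list was not tested. Avpr1b, Mc2r, Ucn2 and Ucn3 were too low to test, at 0.272 CPM or less.

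**Figure D5:**
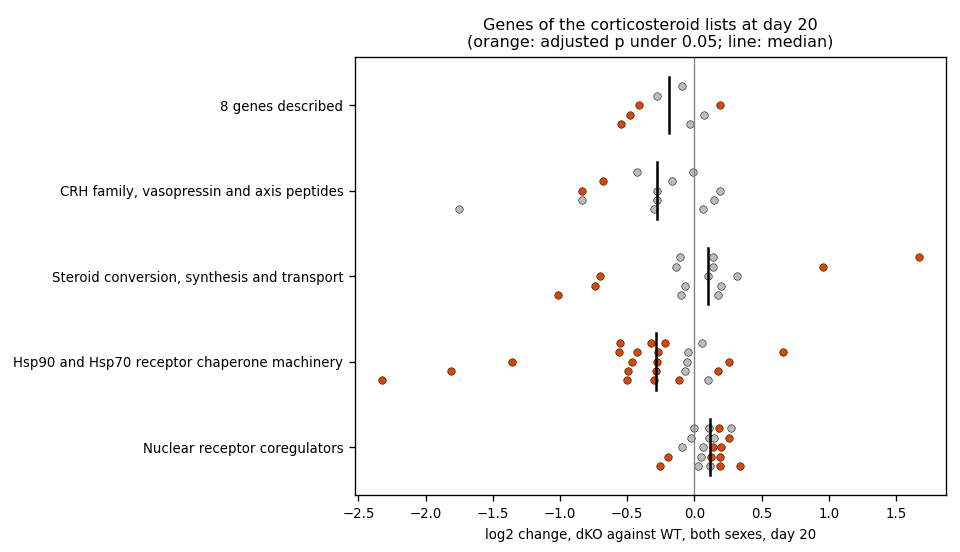
Log2 change of dKO against WT at day 20 for the 8 genes and for each tested gene of the 4 pathway lists. Values are from edgeR's fit over both sexes. Genes past the adjusted p of 0.05 are marked apart, and lines give the median of each row. The chaperone list lies mostly below 0, with 16 genes called lower and 3 higher. The coregulator list lies on both sides, with 8 higher and 2 lower. Of all genes tested, 18.8% were called higher and 19.2% lower.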

How the data were processed

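RNA from 24 libraries was measured by stranded mRNA sequencing (TruSeq Stranded mRNA, per the labels' protocols). The authors deposited 1 table of read counts per library, with unstranded, forward and reverse columns for 50686 genes and 4 entries that name no gene. Alignment with STAR 2.5.2b and counting with HTSeq on GRCm38.p5 are listed in the submitters' processing notes, which do not give the annotation release. The reverse column was used, because the forward column held 5.22 to 7.46% of its counts. Entries that name no gene stayed out of library sizes: of all reads, 41.7 to 47.5% had no feature, 7.65 to 11.0% did not map, 4.77 to 5.94% mapped to several places and 0.589 to 1.05% were ambiguous. Symbols, positions and exon lengths came from GENCODE M21 (50462 identifiers matched, 224 did not).

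The 23 libraries with at least 1 M (mega) gene counts entered 1 edgeR fit over the 8 groups (edgeR 4.0.16 with limma 3.58.1 in R 4.3.3; filterByExpr, TMM, robust quasi-likelihood, Benjamini-Hochberg over all 21657 genes, calls at adjusted p under 0.05). Comparisons over both sexes average the sexes with equal weight. CPM values use gene counts, and intervals cover 95%. No pair of libraries held identical values. Alternatives used DESeq2 1.42.0, sva 3.50.0, other filters and scalings, and each library left out in turn. The statistics were tested on simulated counts. The 8 genes, the 4 pathway lists and the marker lists were chosen with earlier results of these data known. The text names the 8 genes, Fkbp5, Pank1 and Pank2, from each pathway list up to 6 called genes with the smallest p at day 20 and up to 3 at day 10, and the 3 genes closest in pattern to each of the 8; 1 gene that this rule names is not reported here, and Oxtr was named beyond this rule after its value was seen. Promoter sequences are from RefSeq on GRCm38.p6.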

Additional observations from a re-analysis of the deposited data

Results flagged for a closer look

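In the 5 dKO libraries at day 10, dKO male replicate 2 lay far from the others for 2 of the 8 genes by Dixon's criterion, which chance meets in about 1 in 20 groups, and 36 sets of libraries were searched. It had Nr3c2 at 38.67 CPM, where the other 4 libraries had 23.4 to 27.3, and Ncoa1 at 117.3 CPM, where they had 130.5 to 135. It is also the library with the lowest cerebellar marker sum (446 CPM); the part of that difference in these values was not tested.

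The genotype effect differed between day 10 and day 20, by edgeR's test of the difference itself, for 5 of the 8 genes and for Fkbp5; 28.3% of all genes tested passed this test. As the log2 change at day 20 minus that at day 10, it was -0.4029 for Nr3c1 (adjusted p = 0.0007), -0.5033 for Fkbp4 (adjusted p = 1.34e-05), -0.6072 for Ptges3 (adjusted p = 2.24e-06), 0.1819 for Ncoa1 (adjusted p = 0.0317, lost in 14 of 33 alternatives) and 0.2591 for Ncoa2 (adjusted p = 0.00344). For Fkbp5 it was 2.023 (adjusted p = 3.69e-08). In the forward-strand column 18 comparisons were made, and none had every dKO library above every WT library. The other direction was not searched.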

How the results depend on the processing

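The counts of called genes and the changes of the 8 genes and Fkbp5 were recomputed under 33 alternatives, 23 that leave out 1 library and 10 others. Of these, 0 called changes reversed, while 72 values called in neither fit changed sign. The pathway and marker lists were recomputed only in DESeq2 and without the 4 libraries, and the Fkbp5 relations only as described above. The ratios, the order per kilobase, the overlap of libraries and the closest genes were not recomputed. The day 20 calls of Nr3c1, Fkbp4, Ptges3 and Fkbp5 held in all 33, and that of Ncoa2 in all but the test against 1.2-fold. At day 10, where edgeR called 1081 genes and 1 of the 8, the counts were 9 and 0 with 1 surrogate variable, 8 and 0 against 1.2-fold, 9 and 0 without the 4 libraries, 6 and 0 with only the groups compared, and 2087 and 2 in DESeq2; without a filter 0 of the 8 were called. Females at day 10 (69 genes) gave 7 against 1.2-fold, 15 without the 4 libraries, 10 with only the groups compared, 774 in DESeq2, 308 without a filter and 32 in the unstranded column. Males at day 10 (3 genes) gave 0 with only the groups compared, 557 in DESeq2 and 162 without a filter. Females at day 20 gave 4003 with only the groups compared. In males at day 20 that setting called 6 of the 8, with Nr3c2 and Hsd11b1 added. Against 1.2-fold the counts fell to 2905 of 8231 genes at day 20, 494 of 2242 in females (1 of the 8), 3514 of 7493 in males, 2089 of 6127 for genotype by day (2 of the 8), 5723 of 10915 for WT between the days (3 of the 8) and 9 of 15 for sex in WT. Genotype by sex (0 genes) gave 2 at day 10 without a filter, and at day 20 it gave 177 without a filter, 104 with a surrogate variable, 148 without the 4 libraries, 363 in DESeq2 and 1182 with only the groups compared (1 of the 8, Ptges3). Leaving out 1 library gave 15 to 4516 genes and 0 to 3 of the 8 at day 10, 3 to 1277 and 0 to 3 in females and 2 to 4350 and 0 to 3 in males. The extremes at day 10 were 15 without dKO male replicate 2, 72 without dKO female replicate 2, 91 without WT male replicate 1, 170 without dKO female replicate 3, 2063 without dKO female replicate 1, 2384 without WT male replicate 3 and 4516 without dKO male replicate 1. It gave 7169 to 8910 genes and 4 of the 8 at day 20, 1008 to 2700 and 2 to 4 in females, 5541 to 8196 and 4 in males, 4884 to 7327 and 4 to 6 for genotype by day, 9965 to 11375 and 5 to 6 for WT between the days, 12 to 19 and 0 for sex, 0 to 1997 and 0 to 1 for genotype by sex at day 10 and 0 to 150 and 0 at day 20. Subtracting the mean of the same sex left the Fkbp5 relations that passed at 0. With 36 arrangements within sex a few relations could not pass the adjustment over 24, so this 0 decides nothing. The causes were not tested. Depth limits Hsd11b1 most, with 49 counts in its lowest library. No paired analysis was possible because the labels carry no replicate numbers.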
